A study of Mus musculus with 10 samples.

Results

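GFP clones that were rare or unseen at baseline were described here, in a retransplantation of barcoded mouse leukaemia. A clone entered when its barcode belonged to the GFP library, lay under 100 CPM (reads of a barcode among 1000000 barcode reads of the sample) in both baseline samples and had reads in at least 1 of the 10 samples. The members were thus chosen by their baseline CPM and by having any reads, and those values are given as a description. The rule found 292 clones. The table lists 485 GFP barcodes, of which 160 were at 0 in every sample and 33 reached 100 CPM or more in a baseline, and it holds 19704 barcodes in all, 11601 of them with reads.

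SPLINTR barcodes are random DNA tags that a lentivirus inserts into the genome together with a fluorescent reporter, here BFP, GFP or mCHERRY, so that the descendants of a tagged cell carry its tag. The MLL-AF9 fusion drives acute myeloid leukaemia when expressed in haematopoietic progenitors, and retransplantation asks which clones grow again in a new host. NSG hosts lack T, B and NK cells, whereas PTPRCA hosts carry the Ptprca form of the CD45 gene, which serves to tell donor from host blood cells, and have a working immune system.

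The study sequenced barcodes from genomic DNA of sorted viable leukaemia cells of 2 donor mice. All groups share the culture of c-Kit-positive progenitors, the barcode transduction and the MLL-AF9 leukaemia. There were 5 groups with 1 sample per donor: the baseline cells, and bone marrow and spleen at disease from NSG and from PTPRCA hosts. Host age and the number of hosts behind a sample are not given in the labels, so n = 2 counts donors and no spread between hosts of 1 donor can be given. A DNA barcode carries no cell type marker, so the leukaemic identity of the cells rests on the labels. A CPM is a share of reads, so a barcode that rose and others that fell cannot be told apart.

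Each sample was the mean of several separately scaled libraries, 4 for donor 2 NSG marrow, 3 for donor 1 NSG spleen and 2 for the others. Per the labels, lysates were split into technical replicates, but whether all libraries of a sample came from the same lysate or host is not given. The libraries held 1591539 to 4475416 reads, and the samples 5171235 to 10394809. A level of 10 CPM then stood for 52 to 104 reads, and a clone at 0 could lie at up to 0.289 to 0.580 CPM (3 reads of the sample, counting error only). GFP barcodes as a whole held 53.1% of reads in donor 1 baseline and 41.6% in donor 2 baseline, and 35.4% to 46.6% in the disease samples.

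Libraries of 1 sample differed sharply in these clones. In donor 1 NSG spleen, 73 of them had at least 3 reads in library 1, where they made up 1.18% of the library, and 70 of those reached 3 reads in that library alone. Libraries 2 and 3 of the same sample held 5 and 5 such clones, at 0.00781% and 0.00623% of reads. The high values of that sample therefore came from 1 library of 3.

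A like split was present in 2 other samples. Among the divided values of donor 2 NSG marrow, libraries 1 and 2 held the same 16 clones at 3 reads or more, while library 3 held 3 others and library 4 held 0. The value of GFP_Barcode_40977 there, 11609 CPM, could not be divided, so which libraries held it is not known. In donor 1 PTPRCA spleen, 94 clones had reads in library 2 against 10 in library 1. Of the 89 with reads in library 2 alone, 55 had a single read there, which is 18.8% of the GFP clones against 0.291% of the rare BFP clones and 1.43% of the rare mCHERRY clones. These shares have different bases. At 0 in both baselines were 255 of the 292 GFP clones, and for such a clone a single read here could itself give membership. No difference between the colours was tested. These 4 libraries were chosen after their values were seen. Results that rest on them are given with and without them, and what set them apart was not tested. No library of donor 1 NSG marrow was left out, although its libraries, with 43 and 46 clones at 3 reads or more, shared only 16.

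Most of the 292 clones were unseen at baseline, and those that were seen lay well below the limit. At 0 in both baselines were 255 clones (87.3%), with 13 read in donor 1 baseline only, 23 in donor 2 baseline only and 1 in both. Only 8 reached 10 CPM in a baseline. Just inside the limit were GFP_Barcode_4355 at 73.6 CPM, GFP_Barcode_9130 at 70.9 CPM and GFP_Barcode_23638 at 54.9 CPM, all in donor 1 baseline. Just outside lay GFP_Barcode_47225 at 209 CPM in donor 2 baseline, and GFP_Barcode_24894 at 243 CPM and GFP_Barcode_16890 at 287 CPM in donor 1 baseline, so that no GFP clone lay near the limit itself.

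Emergence was mostly slight and seen once. Reads in a disease sample were found for 275 clones, and 17 had reads at baseline only. The highest level of a clone over the 10 samples ranged from 0.0728 to 11609 CPM, with a median of 4.27 CPM. A disease level of 1 CPM was reached by 188 clones (64.4%), 10 CPM by 108 (37.0%), 100 CPM by 9 (3.08%) and 1000 CPM by 1. Of all members, 213 (72.9%) had reads in 1 sample only, 52 in 2 samples, and 9 in 5 or more. Among the 108 clones at 10 CPM or more, 96 (88.9%) were so in exactly 1 disease sample, 8 in 2 and 4 in 3.

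Clones that reached 10 CPM at disease lay almost wholly in NSG hosts for donor 1. In that donor 99 clones reached 10 CPM in NSG marrow or spleen, 33.9% of the 292, and 1 in PTPRCA, with 0 in both strains. All 99 were thus NSG only, against 8.74% of the 9222 clones of any colour under 100 CPM in both baselines, and the PTPRCA clone stood beside 1.62%. In donor 2, 11 GFP clones (3.77%) reached 10 CPM in NSG only, against 5.87% of all rare clones, and 2 in PTPRCA only, against 2.26%. The donor 2 shares of the GFP clones lay below those of all rare clones, and the donor 1 NSG share above. A clone at 0 in both baselines, as 255 of the 292 were, became a member only through its disease reads. The shares of the 292 and of the 9222 thus have different bases, and no difference between them was tested. In donor 1 NSG spleen, 63 of the 66 GFP values at 10 CPM or more came from 1 library.

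By colour, the rare BFP clones at 10 CPM in NSG were 15.5% in donor 1 and 8.93% in donor 2, and the rare mCHERRY clones 10.4% and 14.2%. These shares have different bases, since 30.2% of rare BFP clones but 1.37% of the GFP clones were at 10 CPM or more in donor 1 baseline. Between colours no difference was tested.

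The counts by sample show where the donor 1 clones lay. At 10 CPM or more were 40 GFP clones in donor 1 NSG marrow and 66 in its NSG spleen, against 0 and 1 in the marrow and spleen of PTPRCA hosts. Donor 2 had 10 in NSG marrow, 3 in NSG spleen and 2 in each PTPRCA tissue, and each baseline had 4. Every NSG sample was above every PTPRCA sample, although donor 2 NSG spleen exceeded the donor 2 PTPRCA samples by 1 clone. Without the libraries that stood apart, donor 1 NSG spleen and donor 2 NSG marrow had 2 each, as did each donor 2 PTPRCA tissue. With reads in every library required they had 1 and 0. Both marrow counts leave out the undivided GFP_Barcode_40977. The order thus depended on those libraries. Any reads at all gave another order, with 99 clones in donor 1 PTPRCA spleen, 82 and 77 in donor 1 NSG spleen and marrow, 74 in donor 2 NSG spleen and 9 to 27 in the other disease samples. The median level of those 99 clones was 0.176 CPM, the worth of 1 read in library 2.

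Over both tissues, NSG samples held more GFP clones at 10 CPM than PTPRCA samples by 3.18 on the log2(number + 1) scale, a 9.05-fold difference, with 5.21 in donor 1 and 1.14 in donor 2. The two-sided exact permutation test, which exchanged strains within the 2 donors, gave p = 0.500, the smallest p this design allows, and 1.00 after Benjamini-Hochberg adjustment over the 4 tests of this kind. Without the 4 libraries that stood apart the difference was 1.59 (2.97 and 0.21), with 41 donor 1 and 5 donor 2 clones in NSG against 1 and 2 in PTPRCA. That setting kept all 40 clones of donor 1 NSG marrow, of which 26 had reads in 1 library only. Counting only clones with reads in every library of a sample, the difference was 0.68, with 1.95 in donor 1 and -0.58 in donor 2. Both library rules leave out the value of GFP_Barcode_40977 in donor 2 NSG marrow, which could not be divided among libraries; with it counted, donor 2 stood at 0.42 and -0.08. At a threshold of 100 CPM the difference was 1.06, with 2.20 in donor 1 and -0.08 in donor 2. The sign of the donor 2 mean therefore turned under the every-library rule and at 100 CPM, but the counts behind it were small. At 100 CPM they were 3 and 1 in NSG marrow and spleen against 2 and 2 in PTPRCA. Under the every-library rule they were 0, leaving out GFP_Barcode_40977, and 3 against 2 and 2. These counts give no clear direction in donor 2.

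The summed share of reads gave the same order in the deposited values but rested on 1 clone in donor 2. The 292 clones together made up 0.130% of reads in donor 1 NSG marrow and 0.397% in its NSG spleen, against 0.00173% and 0.00680% in PTPRCA. In donor 2 they made up 1.23% and 0.288% in NSG against 0.107% and 0.0805% in PTPRCA. The baselines held 0.0273% and 0.0114%.

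On the log2 scale the NSG share was higher by 4.36, or 20.6-fold (6.05 and 2.68 by donor, exact permutation p = 0.500, the smallest allowed, adjusted p = 1.00). Without the largest clone, GFP_Barcode_40977, the donor 2 NSG shares were 0.0701% and 0.0192%, below both PTPRCA shares. The difference was then 5.95 in donor 1 and -1.34 in donor 2. Without the libraries that stood apart it was 3.77 in donor 1, and in donor 2 it was undetermined because of the undivided value of that clone. Donor 1 thus kept its direction in both settings, whereas in donor 2 it turned without the 1 clone.

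Marrow and spleen of the NSG hosts of donor 1 shared few of these clones at 10 CPM. In donor 1 NSG, 40 clones in marrow and 66 in spleen had 7 in common, 17.5% of the marrow list and 10.6% of the spleen list. The rare BFP and mCHERRY clones of the same samples had 743 in common of 954 and 1013, or 77.9% and 73.3%. With library 1 of the spleen left out, 2 GFP clones remained at 10 CPM in that spleen, and 1 of them was among the 40 in marrow.

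The 7 clones in both tissues were GFP_Barcode_117983, GFP_Barcode_19949, GFP_Barcode_113284, GFP_Barcode_22885 and GFP_Barcode_4355, with GFP_Barcode_32687 at 27.4 CPM in marrow and 46.8 CPM in spleen and GFP_Barcode_59251 at 23.5 and 49.1 CPM. The last 2 were named after their values were seen. Donor 2 NSG had 10 clones in marrow and 3 in spleen, of which GFP_Barcode_40977 and GFP_Barcode_26156 (46.0 and 12.1 CPM, named after its values were seen) were in both. Both donor 2 PTPRCA clones were in both tissues. In donor 1 PTPRCA the lists were of 0 and 1 clone.

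The number of clones at 10 CPM did not differ detectably between tissues. Spleen exceeded marrow by 0.06 on the log2(number + 1) scale (exact permutation p = 1.00 over 16 sign changes, of which at least 2 always reach the observed size, adjusted p = 1.00), with 0.71 and 1.00 in donor 1 NSG and PTPRCA and -1.46 and 0.00 in donor 2. The summed share differed by 0.27, or 1.21-fold (exact permutation p = 1.00, adjusted p = 1.00), with 1.62 and 1.97 in donor 1 and -2.09 and -0.41 in donor 2. The donors thus ran in opposite directions in the summed share. Without the libraries that stood apart the donor 1 NSG value became -4.21, with the sign turned, and the donor 2 NSG value was undetermined.

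The 2 donors shared 5 clones at 10 CPM or more. The donor 1 list had 100 clones and the donor 2 list 13, so that the 5 were 5.00% of one and 38.5% of the other. They were 5 of the 292 members, against 32 of all 9222 rare clones (0.347%) at this level in both donors. The 292 and the 9222 have different bases, as for the strains, and no difference was tested. All 5 were shared between NSG hosts (99 and 11 clones, 5.05% and 45.5%, background 0.325%), and 0 between PTPRCA hosts (1 and 2 clones, background 0.0217%) or between NSG of one donor and PTPRCA of the other.

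Among the rare BFP clones 15 were shared (1.54% of the donor 1 and 2.41% of the donor 2 list), and among the mCHERRY clones 12 (3.03% and 2.20%). At 1 CPM the donors shared 24 GFP clones of 138 and 74, and at 100 CPM 2 of 6 and 5. Requiring reads in every library of a sample left 0 shared clones, as did leaving out the 4 libraries that stood apart. All the sharing at 10 CPM thus rested on those libraries.

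Clones were also shared between single libraries of different samples. Of the 73 clones at 3 reads or more in library 1 of donor 1 NSG spleen, 13 were also so in library 1 of donor 2 NSG spleen (17.8% and 24.5% of the lists) and 6 in library 1 of donor 2 NSG marrow (8.22% and 37.5%). Within donor 1 it shared 7 with library 1 and 10 with library 2 of the NSG marrow (9.59% and 13.7% of its 73), and 8 with library 2 of the PTPRCA spleen (30.8% of the 26 there). By count, the spleen library of donor 1 thus had no fewer clones in common with a spleen library of the other donor than with these 3 libraries of its own donor. The lists differ in length. As a share of the other list, 24.5% lay above the 16.3% and 21.7% of the marrow libraries and below the 30.8% of the PTPRCA spleen library. These comparisons were not tested. GFP_Barcode_40977 was not counted in the donor 2 NSG marrow library, since its value there was not divided.

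GFP_Barcode_40977 had the highest level of any member. It was at 0 in both baselines (up to 0.517 and 0.521 CPM by 3 reads), at 488 CPM in donor 1 NSG spleen, at 11609 CPM in donor 2 NSG marrow and at 2691 CPM in donor 2 NSG spleen. Donor 1 NSG marrow and all 4 PTPRCA samples were at 0. It was high in 3 of the 4 NSG samples and absent at this depth from the rest.

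Its library reads differed between those samples. Donor 2 NSG spleen had 12074 and 10716 reads, 1.01-fold apart in CPM, whereas donor 1 NSG spleen had 5240 reads in library 1 and 0 in libraries 2 and 3. The donor 2 NSG marrow value could not be divided among its 4 libraries. Donor 2 NSG spleen is thus the sample in which both libraries show this clone at nearly the same level.

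GFP_Barcode_40977 was also the clone on which the test over all clones turned. Its log2(CPM + 10) level was higher in NSG by 5.97 ± 2.76 (SE), with a limma adjusted p of 1.00 and an unadjusted value of 0.0303. With the donor as a block, which the labels' pairing of samples by donor mouse calls for, the SE was 0.95 and the limma adjusted p 1.26e-06. That fit treats marrow and spleen of 1 host group as separate; on their mean the limma adjusted p was 0.788. With the block and without donor 2 NSG marrow the difference was 3.58 and the limma adjusted p 0.188.

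GFP_Barcode_44375 and GFP_Barcode_13746 were the clones that stood highest in PTPRCA hosts. GFP_Barcode_44375 was at 797 CPM in donor 2 PTPRCA marrow and 589 CPM in its spleen, and at 0.658 CPM in donor 2 baseline. Elsewhere it lay between 0 and 3.89 CPM, the latter in donor 1 NSG marrow. It was thus high in both tissues of 1 donor's PTPRCA hosts and near or at 0 in all others.

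GFP_Barcode_13746 followed the same samples, at 247 and 206 CPM in donor 2 PTPRCA marrow and spleen. It had 0.987 CPM in donor 2 baseline and 0.169 CPM in donor 1 baseline, and it was the 1 member read in both. Its other levels reached at most 1.06 CPM, in donor 1 NSG spleen. Of the 2 donor 2 clones at 10 CPM in PTPRCA, both had been read in that donor's own baseline.

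These clones had even support in the libraries. GFP_Barcode_44375 had 2443 and 2193 reads in donor 2 PTPRCA marrow and 1660 and 1656 in spleen, 1.03-fold and 1.04-fold apart in CPM. GFP_Barcode_13746 had 724 and 708 reads in marrow and 620 and 544 in spleen. The log2(CPM + 10) differences, NSG minus PTPRCA over both donors, were -2.91 ± 1.76 (SE) and -2.22 ± 1.47 (SE), with limma adjusted p = 1.00 for each. With the donor block the limma adjusted p were 0.260 and 0.612.

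GFP_Barcode_19949 was read in all 4 NSG samples. Its levels in donor 1 were 108 CPM in NSG marrow, 281 CPM in NSG spleen, 0 in PTPRCA marrow and 3.0 CPM in PTPRCA spleen. In donor 2 they were 153 CPM in NSG marrow, 8.70 CPM in NSG spleen and 0 in both PTPRCA tissues. The baselines held 0 and 0.165 CPM. All 4 NSG samples were above all 4 PTPRCA samples, and it reached 100 CPM in both donors, as did GFP_Barcode_40977.

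The reads of GFP_Barcode_19949 were uneven in donor 1, with 84 and 445 in NSG marrow, 3023, 0 and 0 in NSG spleen and 0 and 17 in PTPRCA spleen. In donor 2 NSG marrow they were 1055, 1009, 0 and 0, and in NSG spleen 42 and 32. Its log2(CPM + 10) difference was 3.24 ± 1.82 (SE), limma adjusted p = 1.00, and 0.174 with the donor block.

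GFP_Barcode_22885 showed the same order at lower levels. It was at 26.7 and 80.1 CPM in donor 1 NSG marrow and spleen, 51.5 and 1.77 CPM in donor 2 NSG marrow and spleen, 1.24 CPM in donor 1 PTPRCA spleen, and 0 in the 2 baselines and the 3 other PTPRCA samples. Its reads lay in library 2 of donor 1 NSG marrow (127, with 0 in library 1), library 1 of donor 1 NSG spleen (861) and libraries 1 and 2 of donor 2 NSG marrow (341 and 355).

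In all, 4 of the 292 clones were higher in NSG than in PTPRCA in each of the 4 pairs of donor and tissue, and 0 were lower in each. Of all 9222 rare clones 0.260% were higher and 0.347% lower in each pair. Besides GFP_Barcode_19949 and GFP_Barcode_22885, these were GFP_Barcode_42724 and GFP_Barcode_25. GFP_Barcode_42724 was at 9.01, 57.1, 4.34 and 4.10 CPM in NSG (donor 1 marrow and spleen, then donor 2) and at most 2.29 CPM in PTPRCA. GFP_Barcode_25 was at 1.47, 21.2, 2.89 and 0.13 CPM in the same samples and at 3.0 CPM in donor 1 PTPRCA spleen. Its donor 2 spleen level was 1 read, and 3 of the 4 clones had at least 3 reads in the NSG sample of every pair. In donor 2 NSG marrow the reads of all 4 lay in libraries 1 and 2, with 0 in libraries 3 and 4. They were 1055 and 1009, 341 and 355, 39 and 20, and 17 and 22, in the order named. In donor 1 NSG spleen their reads lay in library 1 alone. All 4 orders thus rested on libraries that stood apart. Spleen was above marrow in all 4 pairs of donor and strain for 0 clones (0% of all rare clones) and below it for 1, GFP_Barcode_44375 (0.0108%). With at least 3 reads required in each marrow sample, 0 were below.

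GFP_Barcode_3368 and GFP_Barcode_117983 were the other clones at 10 CPM in both donors. GFP_Barcode_3368 was at 321 CPM in donor 2 NSG marrow, 46.4 CPM in donor 1 NSG spleen, 3.58 CPM in donor 2 NSG spleen, 3.51 CPM in donor 2 PTPRCA marrow and 0 in the rest. GFP_Barcode_117983 was at 119 and 100 CPM in donor 1 NSG marrow and spleen, 13.5 CPM in donor 2 NSG marrow, 0.160 CPM in donor 2 PTPRCA marrow and 0 in the rest. Both were unseen at baseline. The levels of GFP_Barcode_117983 in the NSG samples of donor 1 were above those of donor 2, whereas those of GFP_Barcode_3368 overlapped between the donors.

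Their reads repeated the library pattern. In donor 1 NSG spleen GFP_Barcode_3368 had 499, 0 and 0 reads and GFP_Barcode_117983 had 1077, 0 and 0. In donor 2 NSG marrow they had 2194, 2142, 0 and 0 reads, and 91, 92, 0 and 0. In donor 1 NSG marrow GFP_Barcode_117983 had 88 and 492 reads, 6.55-fold apart in CPM.

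The other clones named for their mean level had their highest values in donor 1 NSG hosts. GFP_Barcode_5999 was at 192 CPM in NSG spleen and 5.03 CPM in PTPRCA marrow of donor 1, at 0.223 CPM in donor 2 NSG spleen and at 0 in the rest. GFP_Barcode_113284 was at 98.5 CPM in NSG marrow and 41.9 CPM in NSG spleen and at 0 in the other 8 samples. GFP_Barcode_77659 was at 116 CPM in donor 1 NSG spleen and, besides, at 18.3 CPM in the baseline of donor 2, with 0 in all other samples. GFP_Barcode_161686, named after its value was seen, was at 116 CPM in donor 1 NSG spleen alone.

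These spleen levels came from library 1, with 2067 reads for GFP_Barcode_5999, 450 for GFP_Barcode_113284, 1249 for GFP_Barcode_77659 and 1245 for GFP_Barcode_161686, each with 0 in libraries 2 and 3. The 2 baseline libraries of donor 2 gave GFP_Barcode_77659 111 and 0 reads. The marrow level of GFP_Barcode_113284 had 170 and 324 reads and so was present in both libraries.

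Most clones at 10 CPM at disease were unseen in their donor's own baseline, but so were most members. Of the 292 members, 14 (4.79%) had reads in donor 1 baseline and 24 (8.22%) in donor 2 baseline. Of these, 3 and 3 reached 10 CPM at disease in that donor. The majority of unseen clones thus follows from how the members were chosen, and whether they emerged more often was not tested. In donor 1, 97 of the 278 clones at 0 in its baseline reached 10 CPM at disease, 39 in NSG marrow, 64 in NSG spleen and 0 in either PTPRCA tissue, and 5 of the 97 had reads in the other donor's baseline. In donor 2, 10 of 268 did so, 9 in NSG marrow, 3 in NSG spleen and 0 in PTPRCA. The only members at 10 CPM in PTPRCA had thus been read in the baseline of their own donor. For GFP_Barcode_44375 and GFP_Barcode_13746 that level was low, at 0.658 and 0.987 CPM, where 3 reads stood for 0.521 CPM. Without the libraries that stood apart the counts were 40 and 5, and with reads in every library 13 and 3.

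The members with baseline reads were few in both donors, and no difference between the donors was tested. Of 14 in donor 1 baseline, 6 had reads at disease in that donor, including all 4 that had been at 10 CPM or more. Of 24 in donor 2 baseline, 12 had reads at disease in that donor, with 0 of its 4 at 10 CPM or more. A level above baseline in at least 1 disease sample was seen in 2 and 9 clones.

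GFP_Barcode_4355 went from 73.6 CPM in donor 1 baseline to 18.3 CPM in NSG marrow, 67.1 CPM in NSG spleen, 4.42 CPM in PTPRCA marrow and 9.21 CPM in PTPRCA spleen. GFP_Barcode_9130 had 70.9 CPM at baseline and 0.809, 0.134, 0.549 and 2.67 CPM in the same order. GFP_Barcode_23638 had 54.9 CPM, 0 in both NSG tissues, 3.37 CPM in PTPRCA marrow and 11.1 CPM in PTPRCA spleen, where it was the 1 member at 10 CPM. The most abundant baseline members were thus below their baseline level in every disease sample, and all 3 were at 0 in the donor 2 samples.

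Over the 8 disease samples the library support of these clones differed from that of the other rare clones. Of 124 member values at 10 CPM or more, 123 could be divided into whole reads per library, and 90 of them (73.2%) had reads in 1 library only, 23 (18.7%) in every library and 10 in some. The rare BFP and mCHERRY clones had 5704 such values, 4568 of them divided, with 194 (4.25%) in 1 library and 4310 (94.4%) in every library. This was so also in donor 1 NSG marrow, which had 2 libraries, and there 26 of 40 GFP values (65.0%) but 30 of 938 others (3.20%) came from 1 library. In the donor 1 NSG spleen and donor 2 NSG marrow many BFP and mCHERRY values could not be divided (410 and 683 not divided at 10 CPM or more), so that shares there cover fewer clones.

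The share of clones in 1 library is a measurement on values that share their samples, and no test was made on it. Among values between 10 and 100 CPM, where both sets have many, 84 of 108 GFP values (77.8%) and 182 of 3172 others (5.74%) lay in 1 library. The remaining samples gave another picture. All 3 values in donor 2 NSG spleen, the 2 in donor 2 PTPRCA marrow and the 2 in donor 2 PTPRCA spleen had reads in every library.

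Reads in every library at 10 CPM or more were found for 20 of the 108 clones. Of these 14 were in donor 1 NSG, 1 in donor 1 PTPRCA, 3 in donor 2 NSG and 2 in donor 2 PTPRCA. Donor 1 NSG marrow thus still held the most members, and PTPRCA hosts 3. In donor 2 NSG spleen 49 members lay between 1 and 10 CPM, and all 49 had reads in both libraries.

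Tested across all clones without the donor block, limma called no member between strains or tissues. With 2 samples per group and SEs of 0.99 to 2.76 for the members, the lack of calls cannot show that levels were equal. The filter of 100 CPM in at least 1 sample kept 3443 clones and 9 of the 292 members, each of which passed through the samples where it was high. Between NSG and PTPRCA limma called 0 of the 9 members at an adjusted p below 0.05, with 0% of all clones called, and 1 member had an unadjusted p below 0.05. The 9 differences ran from -2.91 to 5.97 on the log2(CPM + 10) scale. Between spleen and marrow limma called 0 members and 0% of all clones, with 0 members at an unadjusted p below 0.05 and differences from -0.64 to 0.95.

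With the donor as a block, limma called 1 member between strains, GFP_Barcode_40977, with 0.290% of all clones called. On the mean of marrow and spleen, and without donor 2 NSG marrow, it called 0 members. With no filter 0 of 292 members were called, 3 of them at an unadjusted p below 0.05, and the median difference of the 292 was 0.09 against 0.00 over all clones.

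Within 1 donor, where no test is possible, a difference of over 4-fold in the same direction in both tissues was counted on the same scale, for clones at 100 CPM or more at disease in that donor. In donor 1, 2 of 6 members were higher in NSG (GFP_Barcode_19949 and GFP_Barcode_117983) beside 25.1% of all such clones, and 0 in PTPRCA beside 11.4%. The NSG spleen reads of both clones lay in library 1 alone (3023 and 1077, with 0 in libraries 2 and 3). Both calls thus rested on a library that stood apart. In donor 2, 1 of 5 was higher in NSG (GFP_Barcode_40977) beside 20.2%, and 2 in PTPRCA (GFP_Barcode_13746 and GFP_Barcode_44375) beside 10.1%. The donor 2 NSG marrow value of GFP_Barcode_40977 was not divided among libraries. With 5 and 6 members, these shares were not set apart from the background.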

How the data were processed

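Barcode reads from genomic DNA of 10 samples were deposited by the authors as CPM per barcode, and each column sums to 1000000. The submitters' processing notes name Bowtie 1.2.2 and R 3.6; how technical replicates were combined is not given in the sources used here. Columns were matched to samples by the donor, strain and tissue in their names, with 0 columns of other samples. Barcode sequences were not used here.

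Low CPM values were whole multiples of the worth of 1 read in each of 2, 3 or 4 libraries, which gave every library's read total. Values were divided into whole reads per library, with 1 solution required for 2 libraries. For 3 or 4 libraries the division over the fewest libraries was taken where at most 0.05 accidental divisions were expected, so values spread over more libraries stay undivided more often. Of 430 member values 429 (99.8%) were divided, and the step was tested on simulated data. Since no single step gives whole reads in a column, no count model was run.

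The software was limma 3.58.1 in R 4.3.3, and Python 3.11.15 with scipy 1.17.1, numpy 2.4.6 and pandas 2.3.3. Numbers of clones were compared as log2(number + 1), since 1 sample had 0, and summed shares as log2. Exact two-sided permutation tests exchanged strains within donors or flipped spleen and marrow in the 4 pairs. Clones were fitted with limma (trend) with a separate mean for each group, on log2(CPM + 10) values of the 10 samples, for clones at 100 CPM or more in at least 1 sample, with Benjamini-Hochberg adjustment over all of them. Changes of low clones are understated by the added 10 CPM. Same-numbered samples come from the same donor mouse, so the numbers pair them; over 3443 clones, deviations from the group means had correlations between 0.466 and 0.944 in the 10 group pairs, and the fit with the donor as a block is given beside the results it changes.

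Named clones are the 10 members highest on average at disease, those at 100 CPM in both donors, those called by limma, those of 1 sign in all pairs (up to 5 by strain and 3 by tissue), those unseen at baseline and at 10 CPM in both donors, and the 3 on each side of the baseline limit. The members and lists were chosen with earlier results of these data known. Alternatives changed the detection threshold (1 or 100 CPM), the baseline limit (10 or 0 CPM), the pseudocount (1 or 100), the filter (1000 CPM or none), the donor block and the donors included. Library rules and fits without single samples were added after seeing the data.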

Additional observations from a re-analysis of the deposited data

Results flagged for a closer look

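Between the donors, 3 results ran in opposite directions in every sample pair, and these differences between donors were not tested. The summed share of the 292 clones was higher in spleen than in marrow by 1.79 on the log2 scale in donor 1 and lower in donor 2 (-1.25), in both strains. Without the libraries that stood apart, donor 1 no longer had 1 direction, with -4.21 in NSG and 0.69 in PTPRCA. The donor 2 NSG value was then undetermined. GFP_Barcode_44375 differed between NSG and PTPRCA by 0.29 on the log2(CPM + 10) scale in donor 1 and by -6.11 in donor 2. GFP_Barcode_13746 differed by 0.11 in donor 1 and by -4.55 in donor 2. In donor 1 both clones lay at or under 3.89 CPM in all disease samples, so that the donor 1 differences rest on few reads.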

How the results depend on the processing

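The difference in detected clones between tissues turned in sign for members under 10 CPM (-0.19) or at 0 (-0.16) in both baselines and without the libraries that stood apart (-0.59, or -0.69 with the undivided value of GFP_Barcode_40977 counted) and with reads in every library where that value counted (-0.23), and ran from -0.73 to 0.85 with a donor left out. The summed share between tissues turned for members at 0 (-0.06) and ran from -1.25 to 1.79 with a donor left out. Clones shared between donors numbered 24 at 1 CPM, 2 at 100 CPM and 0 under either library rule. Clones unseen in their donor's baseline numbered 6 in donor 1 and 2 in donor 2 at 100 CPM, 66 in donor 2 at 1 CPM, 13 and 3 with reads in every library, and 40 and 5 without the libraries that stood apart. In each of these only the threshold, the baseline limit, the donors or the libraries were altered, and no further cause was tested. With the replicate block limma called 1 member between strains, and also 1 without NSG spleen replicate 1. With a donor left out, GFP_Barcode_13746 ran from -4.55 to 0.11 and GFP_Barcode_44375 from -6.11 to 0.29, both positive without donor 2. Averaged over the donors, the differences between strains kept their direction. With a donor left out they were 1.14 to 5.21 for detected clones and 2.68 to 6.05 for summed shares. At 100 CPM the mean was 1.06. The donor 2 value there was -0.08, on counts of 3 and 1 in NSG against 2 and 2 in PTPRCA. Of 157 alternative values, 44 for counts and group differences and 88 for single clones kept direction and side of the threshold, or stayed within 1.5 times the count. Under either library rule, mean differences in summed share over the donors could not be computed. The value of GFP_Barcode_40977 in donor 2 NSG marrow was not divided, so only differences that do not use that sample were available. limma without a whole donor has no residual degrees of freedom, so no calls were counted. Limits are the 2 donors, the unknown number of hosts and the 3 samples with libraries that stood apart. In donor 1 NSG marrow, too, 26 of 40 values at 10 CPM or more came from 1 library. Counting depth allows a clone at 0 up to 0.580 CPM.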
